A study of Mus musculus with 4 samples.

Results

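The Cyp2 family of cytochrome P450 genes was followed through 4 pools of mouse liver RNA. Its members were all genes whose platform symbol begins with Cyp2 and a letter, which gave 50 of the 22180 genes with a symbol of their own on the array, in 14 subfamilies. Where several probe sets named a gene, the one brightest on average was read. All mice were C57BL/6 animals older than 2 months, and each pool was hybridised to 1 array. The first pool held chow-fed wild-type (WT) livers (7 mice). Another held WT livers after 3 weeks on 70% fructose (7 mice), another WT livers after 2 weeks on it (4 mice), and the last Chrebp-null livers after 2 weeks on it (6 mice). Every pool mixed males and females, but the labels do not give their proportions or say how the null allele was made. ChREBP, encoded by Mlxipl, is a sugar-responsive transcription factor.

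Cytochromes P450 of the Cyp2 family are heme enzymes of the endoplasmic reticulum that insert oxygen into drugs, solvents, steroids, bile acids and fatty acids such as arachidonic acid. In hepatocytes many of them are controlled by the nuclear receptors CAR (Nr1i3) and PXR (Nr1i2), by hepatocyte factors such as HNF4A, and by the pituitary rhythm of growth hormone, which makes some of them differ between males and females. Most lie in tandem clusters of close copies, so a probe set may also pick up a neighbour's RNA, and the value of any single member carries that uncertainty.

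Values are log2 expression, and a difference of 1 is a 2-fold ratio. With 1 array per pool there was no replicate, no standard deviation and no test, so each difference below compares 2 arrays. A level was taken as above background at or over a floor of 3.52, the median over all genes of their mean level. By that floor 34 of the 50 members were detected, each of them in all 4 pools. The other 16 stayed below it in all 4 pools, with levels from 1.81 to 3.51. These 16 were Cyp2ab1, Cyp2b19, Cyp2b23, Cyp2c53-ps, Cyp2c65, Cyp2c66, Cyp2d11, Cyp2d12, Cyp2d34, Cyp2j8, Cyp2j11, Cyp2j12, Cyp2j13, Cyp2s1, Cyp2t4 and Cyp2w1, and no difference was counted for them. RefSeq lists 3 of the 50 as transcribed pseudogenes (Cyp2c53-ps, Cyp2d13 and Cyp2d37-ps). Array medians lay between 3.11 and 3.17. Hepatocyte markers such as Alb were bright in every pool (mean of 9 markers between 11.40 and 11.45), while the neutrophil markers S100a8, S100a9 and Ly6g lay below the floor everywhere. Of the 5 measured cholangiocyte markers, Krt19 and Cftr were below the floor in all pools, Epcam (4.24 to 4.98) and Sox9 (4.55 to 5.74) were above it in all, and Krt7 was above it in some. Mlxipl itself was lowest in the null pool (8.09, against 9.25 to 9.83 elsewhere). In pooled whole liver, fewer cells that express a gene and less RNA per cell cannot be told apart.

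**Figure D1:**
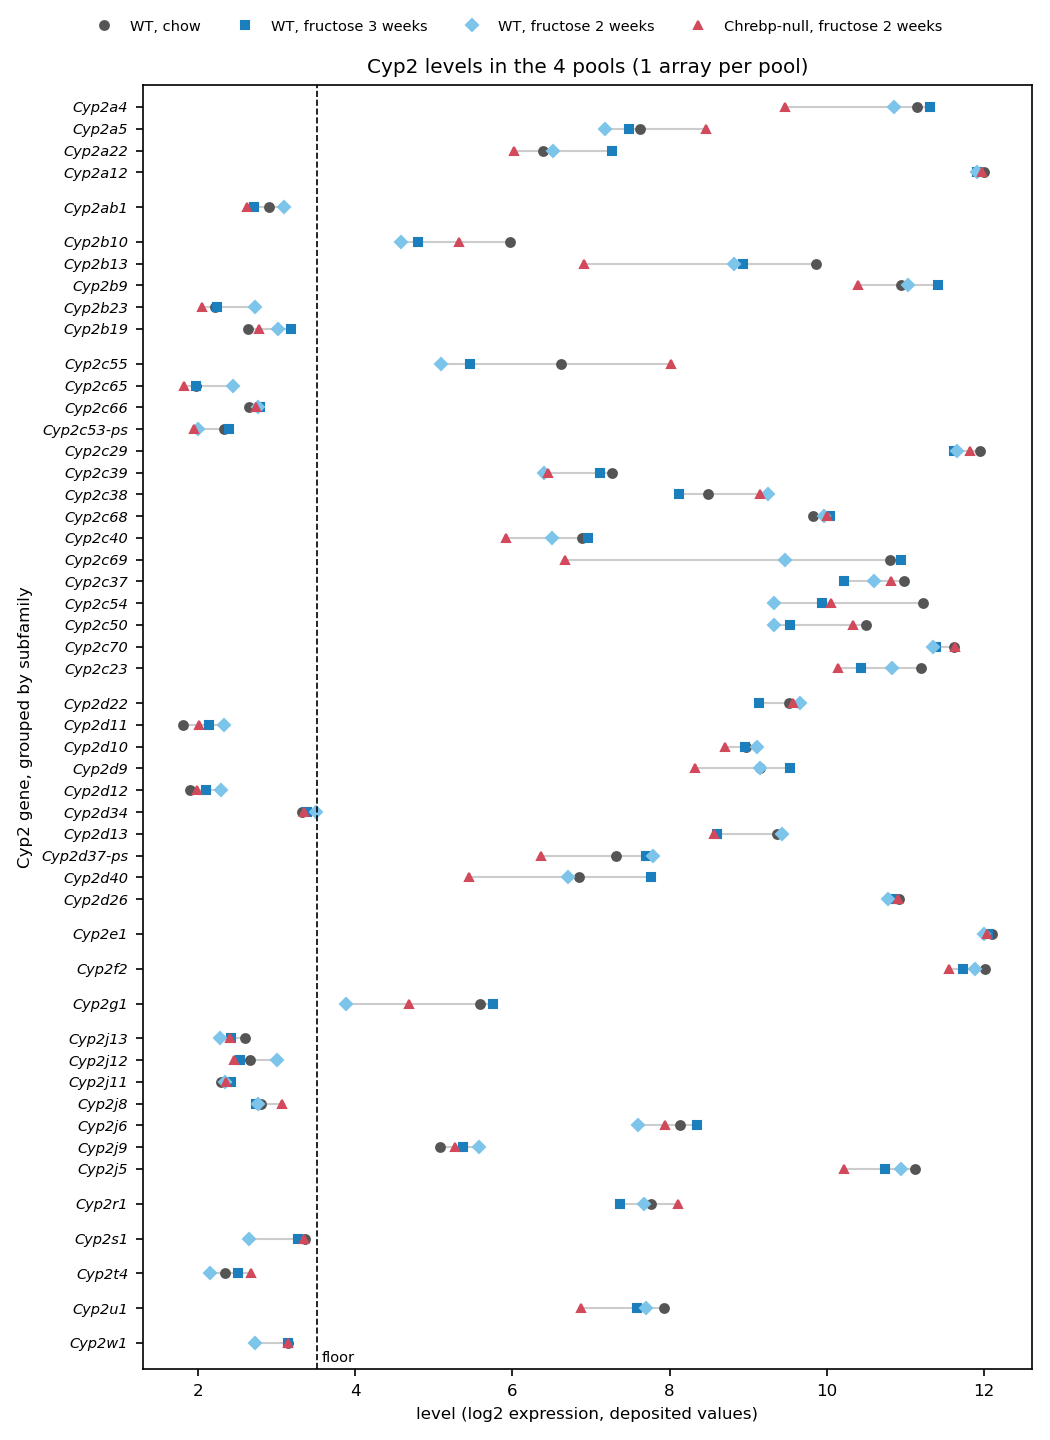
Level of each of the 50 Cyp2 genes (log2 expression, horizontal axis) in the 4 pools, grouped by subfamily and, within it, in chromosome order; each symbol is 1 array, grey bars join the lowest and highest pool, and the dashed line is the floor of 3.52. The 34 detected members lie right of the line in every pool, and Cyp2c69, Cyp2b13 and Cyp2c55 have the longest bars.

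Some Cyp2 genes carry promoters of very similar sequence, and 4 pairs of them are shown here because the results below set their profiles side by side. In the Cyp2b13, Cyp2a4 and Cyp2c69 pairs the partners' null differences were at least 1.27 apart, while Cyp2c37 and Cyp2c50 had differences of the same sign in both comparisons. Of the 50 members, 40 had a promoter in the RefSeq table for GRCm38.p6, and the 250 bases before the start were aligned for all 780 pairs. In 6 pairs of detected members at least 80% of alignment columns were identical, a limit set after the values were seen. Capitals mark bases that differ from the partner or stand against a gap, and all sequences run 5′ to 3′ on the gene's strand. Cyp2b13 (chr7:26061245-26061494, plus strand) and Cyp2b9 (chr7:26173159-26173408, plus strand) shared 248 of 250 bases.
Cyp2b13: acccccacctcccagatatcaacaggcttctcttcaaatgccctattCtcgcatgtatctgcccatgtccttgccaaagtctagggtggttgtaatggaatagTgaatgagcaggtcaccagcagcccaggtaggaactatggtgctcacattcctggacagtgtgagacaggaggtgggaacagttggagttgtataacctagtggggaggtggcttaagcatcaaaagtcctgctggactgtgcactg
Cyp2b9: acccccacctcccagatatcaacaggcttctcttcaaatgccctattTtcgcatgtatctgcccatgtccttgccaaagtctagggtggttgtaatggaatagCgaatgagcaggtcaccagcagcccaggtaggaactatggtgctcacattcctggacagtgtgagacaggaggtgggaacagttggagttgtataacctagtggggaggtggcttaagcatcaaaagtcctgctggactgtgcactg

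Cyp2a4 (chr7:26306942-26307191, plus strand) and Cyp2a5 (chr7:26835089-26835338, plus strand) shared 245 of 251 alignment columns.
Cyp2a4: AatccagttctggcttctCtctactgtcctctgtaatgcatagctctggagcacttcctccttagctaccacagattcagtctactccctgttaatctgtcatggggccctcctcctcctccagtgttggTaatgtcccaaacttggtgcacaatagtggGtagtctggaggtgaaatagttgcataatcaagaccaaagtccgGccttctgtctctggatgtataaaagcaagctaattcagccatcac
Cyp2a5: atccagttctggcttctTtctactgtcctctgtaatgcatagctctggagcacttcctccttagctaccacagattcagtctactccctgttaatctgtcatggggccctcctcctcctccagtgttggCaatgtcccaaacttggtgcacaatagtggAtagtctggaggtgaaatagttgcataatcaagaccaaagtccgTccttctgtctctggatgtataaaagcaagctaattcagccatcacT

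Cyp2c68 (chr19:39741102-39741351, minus strand) and Cyp2c69 (chr19:39886770-39887019, minus strand) shared 232 of 254 columns.
Cyp2c68: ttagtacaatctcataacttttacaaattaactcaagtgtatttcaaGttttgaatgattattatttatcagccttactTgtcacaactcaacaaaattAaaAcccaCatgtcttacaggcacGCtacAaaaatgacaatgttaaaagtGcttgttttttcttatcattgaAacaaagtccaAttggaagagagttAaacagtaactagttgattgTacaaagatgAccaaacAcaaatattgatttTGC
Cyp2c69: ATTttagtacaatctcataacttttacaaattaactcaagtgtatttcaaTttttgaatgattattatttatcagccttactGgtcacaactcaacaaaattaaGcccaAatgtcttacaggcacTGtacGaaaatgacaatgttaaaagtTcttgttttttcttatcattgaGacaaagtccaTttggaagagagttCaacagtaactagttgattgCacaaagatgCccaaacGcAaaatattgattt

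Cyp2c37 (chr19:39992174-39992423, plus strand) and Cyp2c50 (chr19:40089429-40089678, plus strand) shared 215 of 255 columns.
Cyp2c37: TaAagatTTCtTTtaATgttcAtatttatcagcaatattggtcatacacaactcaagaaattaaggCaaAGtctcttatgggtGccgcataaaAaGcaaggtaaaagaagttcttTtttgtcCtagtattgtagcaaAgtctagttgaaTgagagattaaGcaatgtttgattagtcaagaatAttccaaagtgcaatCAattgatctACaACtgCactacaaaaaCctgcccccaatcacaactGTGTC
Cyp2c50: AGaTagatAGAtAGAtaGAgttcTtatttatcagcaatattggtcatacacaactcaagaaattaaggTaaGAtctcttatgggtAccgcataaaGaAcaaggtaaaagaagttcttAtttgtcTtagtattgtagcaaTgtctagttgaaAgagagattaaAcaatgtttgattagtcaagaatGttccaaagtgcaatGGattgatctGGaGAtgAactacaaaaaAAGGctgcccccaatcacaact

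Motifs were searched on both strands of the same 250-base windows. The HNF4A-type motif TGNACTTTG was found in 8 of the 40 members' windows (20%) and in 1.21% of the 27025 windows of all genes. Those 8 were Cyp2c37, Cyp2c40, Cyp2c50, Cyp2c65, Cyp2c68, Cyp2c69, Cyp2c70 and Cyp2d26, so both partners of the 2 Cyp2c pairs printed above hold it. The C/EBP-type motif TTGCNNAA was found in 11 of 40 windows (27.5%, against 9.55% of all), among them both partners of the Cyp2b and the Cyp2a pair. The nuclear receptor core motif AGGTCA was in 10 (25%, against 13.84%) and the E box CACGTG, a core of ChREBP elements, in 1 (2.5%, Cyp2j6, against 6.05%). The STAT-type motif TTCNNNGAA stood in 2 windows (5%, against 7.18%), both of members below the floor. TATAAA was in 17 (42.5%, against 12.97%) and the FOXA-type motif TGTTTAC in 4 (10%, against 3.09%). Close copies often share matches, and a match is a string of letters in this window only.

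The series design sets fructose-fed against chow-fed WT livers, which asks what the diet does to liver RNA. In the Cyp2 family, Cyp2c54, Cyp2b10 and Cyp2c55 read at least 2-fold lower after 3 weeks of fructose, and no member read 2-fold higher. That is 3 of 34 lower (8.82%), beside 1.16% of the 11717 genes assessed, and 0 of 34 higher, beside 0.640%. The median difference of the 34 members was -0.15 (all genes -0.05), with 22 below 0 and 12 above. In the 2-week WT pool over the same chow array, 7 of 34 were at least 2-fold lower (background 1.41%) and 0 were higher (background 0.783%). The 4 lower there beside the first 3 were Cyp2b13, Cyp2c50, Cyp2c69 and Cyp2g1. Both differences use the chow array, so a low or high chow value would enter both.

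The second comparison sets Chrebp null against WT livers after 2 weeks of fructose, and asks what the loss of the factor does under the diet. Cyp2c69, Cyp2b13, Cyp2d37-ps, Cyp2a4 and Cyp2d40 were lower by 2-fold or more in null liver, and Cyp2c55, Cyp2a5 and Cyp2c50 at least 2-fold higher. These 5 of 34 lower (14.7%) stand beside 1.43% of the 11631 genes assessed, and the 3 of 34 higher (8.82%) beside 2.03%. The members' median was -0.10 where that of all genes was 0.10, and their median absolute difference was 0.61, against 0.22 for all genes. Set against the 3-week WT pool instead, with the same null array, 10 of 34 were lower (background 1.95%) and 2 were higher (background 3.38%). Between the WT fructose pools themselves, which differ in mice and weeks and are not replicates, 3 members were at least 2-fold higher at 3 weeks (Cyp2g1, Cyp2c69 and Cyp2d40; background 1.27%) and Cyp2c38 was lower (background 1.10%).

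The fructose comparison and the Chrebp-null comparison share no array. Of the 34 members, 13 read lower on fructose and higher in the null pool, 9 lower in both, 9 higher on fructose and lower in the null pool, and 3 higher in both. The 13 included 7 Cyp2c genes (Cyp2c29, Cyp2c37, Cyp2c39, Cyp2c50, Cyp2c54, Cyp2c55 and Cyp2c70) beside Cyp2b10 and Cyp2a5. Most of these differences were small, and only Cyp2c55 passed 2-fold in both comparisons. The same split was not counted over all genes, whose median difference was -0.05 on fructose and 0.10 in the null comparison.

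**Figure D2:**
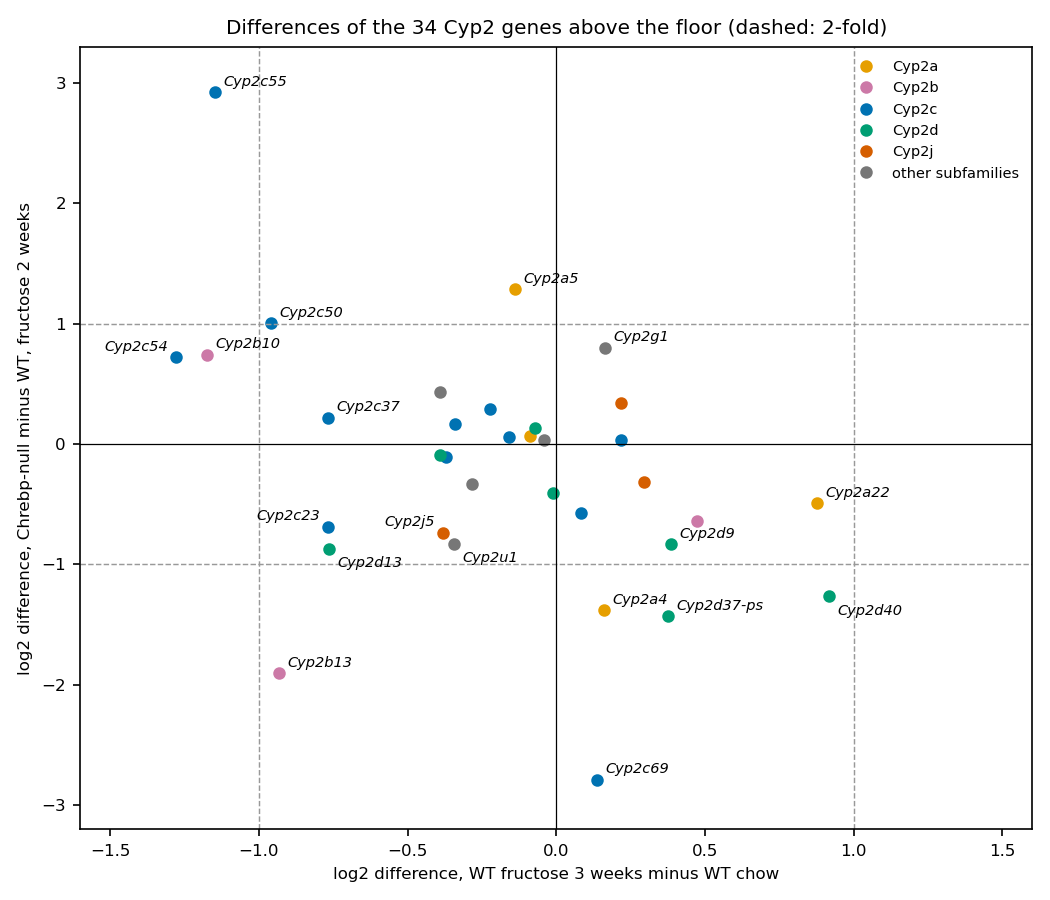
Each point is 1 of the 34 detected Cyp2 genes, with the log2 difference of WT after 3 weeks of fructose minus WT on chow on the horizontal axis and of Chrebp null minus WT after 2 weeks of fructose on the vertical axis; dashed lines mark 2-fold. Cyp2c55 lies at -1.15 and 2.93, Cyp2c69 at 0.14 and -2.79, and Cyp2b13 at -0.93 and -1.91.

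The Cyp2b subfamily holds the classic phenobarbital-inducible P450s, and 3 of its 5 members were detected. Cyp2b10, the standard target gene of CAR, read 5.98 on chow, 4.80 and 4.58 in WT on fructose for 3 and 2 weeks, and 5.32 in the null pool. Both WT fructose pools thus lay below chow, by -1.17 (a ratio of 2.26) and -1.40, and the null pool lay between them and chow, higher than the 2-week WT pool by 0.74. Cyp2b13, a female-predominant steroid hydroxylase, read 9.86 on chow, 8.93 and 8.81 in the WT fructose pools and 6.91 in the null pool. It was lower than chow by -0.93 at 3 weeks and -1.04 at 2 weeks, and null liver differed from 2-week WT liver by a further -1.91 (a ratio of 3.75). Cyp2b9, its female-predominant neighbour with the promoter that differs in 2 bases, read 10.95, 11.42, 11.03 and 10.39 in the same order. The fructose differences of the pair thus had opposite signs at 3 weeks (-0.93 and 0.47), and in the null pool both were lower, Cyp2b9 by -0.64, which is under 2-fold, and by -1.02 against the 3-week pool.

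In the Cyp2a subfamily all 4 members were detected. Cyp2a4, a testosterone hydroxylase that is higher in female liver, read 11.15 on chow, 11.31 and 10.85 in the WT fructose pools and 9.47 in the null pool. Only the null pool stood apart, with a difference of -1.38 from the 2-week WT pool (a ratio of 2.61) and -1.84 from the 3-week WT pool. Cyp2a5, a coumarin hydroxylase that also oxidises nicotine and is inducible by liver stress, read 7.62, 7.48, 7.18 and 8.46. In the null pool it was the highest of the 4, by 1.29 over the 2-week WT pool (a ratio of 2.45) and by 0.98 over the 3-week pool, just under 2-fold. The pair whose promoters share all but a few bases therefore differed by 2.67 in its null difference, in opposite directions, while on fructose over chow both lay within 0.16 of 0 at 3 weeks. Cyp2a22 read 6.39, 7.27, 6.52 and 6.02, higher at 3 weeks of fructose by 0.88 and near chow at 2 weeks (0.12). Cyp2a12, a steroid hydroxylase, stayed between 11.91 and 12.00 in all pools.

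**Figure D3:**
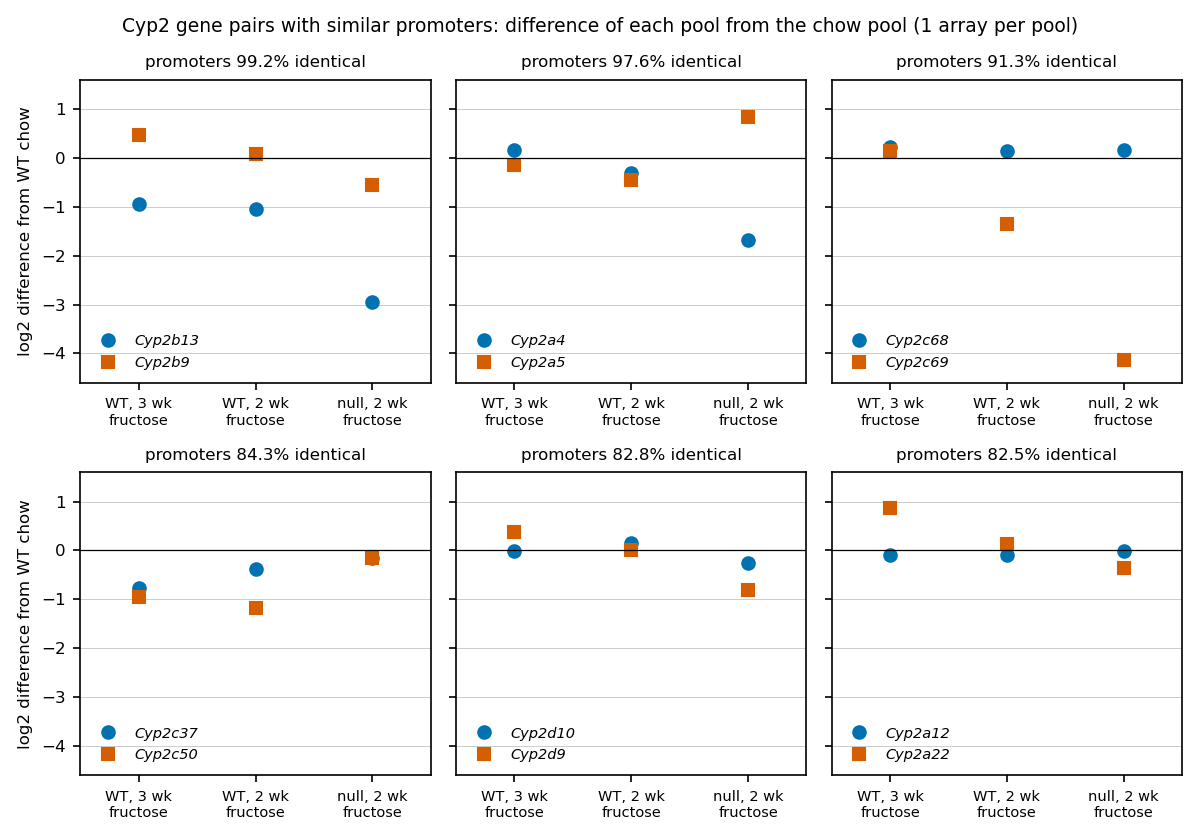
Difference of each fructose pool from the chow pool (log2, vertical axis) for the 6 pairs of detected Cyp2 genes whose 250-base promoters were at least 80% identical; circles and squares are the partners, 1 array per point. Cyp2a4 and Cyp2a5 part in the null pool, Cyp2c69 lies below Cyp2c68 in the 2-week WT and null pools, and Cyp2c37 and Cyp2c50 stay close except in the 2-week WT pool.

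The Cyp2c subfamily, mostly arachidonic acid epoxygenases and hydroxylases, had 15 members, of which 12 were detected. On fructose for 3 weeks 9 of the 12 read below chow, with a median of -0.35 (all genes -0.05). In the null comparison 8 of 12 were above 0, with a range from -2.79 to 2.93. Their median there was 0.11, close to the 0.10 of all genes. Cyp2c55, a CAR and PXR inducible enzyme known from colon and liver, read 6.61 on chow, 5.47 and 5.10 in WT on fructose and 8.02 in the null pool. The WT fructose pools were thus below chow by -1.15 and -1.52, and the null pool was above every other, by 2.93 over the 2-week WT pool (a ratio of 7.60), 2.56 over the 3-week pool and 1.41 over chow. A second, dimmer probe set of Cyp2c55 read 4.62, 4.94, 5.31 and 4.38 and went the other way, by 0.32 on fructose and -0.93 in the null pool, so with the mean of both probe sets the fructose difference was -0.41 and neither comparison reached 2-fold. The labels do not say which part of the transcript each probe set covers.

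A run of neighbours in the Cyp2c cluster, the arachidonic acid metabolising Cyp2c37, Cyp2c54 and Cyp2c50, had profiles that were alike in part. Cyp2c54 read 11.22 on chow, 9.94 and 9.33 in the WT fructose pools and 10.05 in the null pool, lower on fructose by -1.28 (a ratio of 2.42) and -1.89. Cyp2c50 read 10.49, 9.53, 9.32 and 10.33. It was lower on fructose by -0.96 and -1.17, and higher in the null than in the 2-week WT pool by 1.01, a value at the threshold that was 0.79 against the 3-week pool. Cyp2c37 read 10.98, 10.22, 10.60 and 10.82, with differences of -0.77 and -0.38 on fructose and 0.22 in the null pool. In all of them the chow pool was highest and the null pool second. The lowest was the 3-week WT pool for Cyp2c37 and the 2-week WT pool for Cyp2c54 and Cyp2c50. Cyp2c29, another CAR target of this cluster, spanned only 11.61 to 11.95, again with chow and null above both WT fructose pools.

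Cyp2c69 had the widest spread of any member. It read 10.80 on chow, 10.94 after 3 weeks of fructose, 9.46 after 2 weeks and 6.67 in the null pool. Null liver differed from 2-week WT liver by -2.79 (a ratio of 6.91) and from 3-week WT liver by -4.27, and the 2-week WT pool was itself lower than chow by -1.34. Its neighbour Cyp2c40, which hydroxylates arachidonic acid, read 6.88, 6.97, 6.50 and 5.92, with a null difference of -0.58 and, against the 3-week pool, -1.04. Cyp2c68, the partner of Cyp2c69 in the promoter comparison, stayed between 9.82 and 10.04, with a null difference of 0.03. A probe set assigned to both Cyp2c67 and Cyp2c68, left out of the members because it names several genes, read 11.47, 11.70, 11.55 and 10.72, lower in the null pool by -0.83.

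The remaining detected Cyp2c genes varied less or by pool. Cyp2c23, an arachidonic acid epoxygenase also known as Cyp2c44, read 11.20 on chow, 10.43 and 10.83 in WT on fructose and 10.14 in the null pool, which was lower than the 2-week WT pool by -0.69. Cyp2c38 read 8.49, 8.12, 9.25 and 9.14, so both 2-week pools lay above chow and the 3-week pool below it. Cyp2c39, a retinoic acid hydroxylase, read 7.27 and 7.11 on chow and at 3 weeks and 6.40 and 6.46 in the 2-week WT and null pools. For both genes the null pool thus sat beside the WT pool of the same 2 weeks, within 0.10 and 0.06. Cyp2c70, which makes the muricholic bile acids of mice, stayed between 11.34 and 11.63.

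The Cyp2d subfamily, relatives of the human drug-metabolising CYP2D6, had 7 detected members of 10. In the null comparison 6 of the 7 were below 0, with a median of -0.83, while on fructose at 3 weeks the median was -0.01. Cyp2d9, the male-predominant testosterone hydroxylase, read 9.15 on chow, 9.53 and 9.16 in WT on fructose and 8.33 in the null pool, lower there by -0.83, and by -1.20 against the 3-week pool. Cyp2d40 read 6.85, 7.76, 6.71 and 5.44, so the 3-week pool was the highest, by 0.92 over chow, and the null pool the lowest, by -1.27 below the 2-week WT pool (a ratio of 2.40). The transcribed pseudogene Cyp2d37-ps read 7.32, 7.70, 7.79 and 6.36, with a null difference of -1.43, and Cyp2d13, listed by RefSeq in the same class, read 9.37, 8.60, 9.43 and 8.56. Cyp2d10 (8.71 to 9.12), Cyp2d22 (9.13 to 9.65) and Cyp2d26 (10.78 to 10.92) stayed within narrow bands.

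Of the Cyp2j subfamily, epoxygenases of arachidonic acid, 3 of 7 members were detected. Cyp2j5 read 11.12 on chow, 10.73 and 10.95 in WT on fructose and 10.21 in the null pool, a null difference of -0.74. Cyp2j6 lay between 7.60 and 8.34, lowest in the 2-week WT pool, and Cyp2j9 between 5.08 and 5.58, highest in that same pool.

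The subfamilies with a single member ranged from flat to variable. Cyp2e1, which oxidises ethanol, acetone and acetaminophen in pericentral hepatocytes, stayed between 12.00 and 12.09 in all pools, and Cyp2f2, a periportal enzyme that activates naphthalene, read 12.02, 11.73, 11.89 and 11.56. Cyp2g1, best known from olfactory mucosa, read 5.59 on chow and 5.75 after 3 weeks of fructose, but 3.88 in the 2-week WT pool and 4.68 in the null pool. Its 2-week WT value was lower than chow by -1.71, and the null pool was higher than that by 0.80. Cyp2r1, a vitamin D hydroxylase, read 7.76, 7.37, 7.68 and 8.11, highest in the null pool by 0.43 over the 2-week WT pool. Cyp2u1, which hydroxylates long-chain fatty acids, read 7.92, 7.58, 7.70 and 6.87, lowest in the null pool by -0.83. Both stayed under 2-fold in the fructose and the Chrebp-null comparison, but the null pool was below chow for Cyp2u1 by -1.05, past 2-fold.

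Other genes of the same system were read from lists chosen with earlier results of these data known. Genes outside the family that respond to CAR and PXR had 11 measured members. On fructose at 3 weeks 8 of 11 were below 0 (median -0.50), and 2 were at least 2-fold lower, the transporter Abcc3 at -1.82 and the carboxylesterase Ces2a at -1.30. In the 2-week WT pool over the same chow array the list did not lean that way, with 6 of 11 above 0, a median of 0.06 and none 2-fold lower. By contrast, Cyp2b10 and the Cyp2c55 probe set that was read were below chow at both times. The second probe set of Cyp2c55 was above chow, by 0.32 at 3 weeks and 0.69 at 2 weeks. In the null comparison 11 of 11 listed genes were above 0 (median 0.43, all genes 0.10), but none reached 2-fold, with Gadd45b at 0.84 and Aldh1a7 at 0.82. The genes of both receptors stayed under 2-fold. Nr1i3 read 8.83, 8.63, 8.99 and 9.30 and Nr1i2 read 8.46, 8.23, 8.62 and 8.60. In the list of 19 measured receptors and factors, Onecut1 was higher on fructose at 3 weeks by 1.28, and Bcl6, a repressor linked to growth hormone signalling, was lower by -1.67 there and by -1.58 in the null comparison. No other listed factor passed 2-fold in either comparison. In the 2-week WT pool over chow, Onecut1 was at -0.65 and Bcl6 at 0.16. The 2 listed factors past 2-fold there were Foxa2 at -1.25 and Nr0b2 at -1.16.

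Cytochromes P450 need heme and electron donors to work. None of the 10 measured heme genes passed 2-fold in either comparison, with medians of -0.08 and 0.18. The 5 measured electron donors and P450 partners, among them Cyb5a, had medians of -0.17 and 0.02 with none past 2-fold. Pericentral hepatocyte genes outside the family were below 0 on fructose in 9 of 9 cases (median -0.40, all genes -0.05), with Tbx3 at -1.09. In the null comparison 8 of 9 were above 0 (median 0.23, all genes 0.10). The 7 periportal genes had medians of -0.17 and -0.01, with the cadherin gene Cdh1 at -1.27 on fructose.

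Sex-linked and sex-biased genes differed between the pools, as did members known to differ between the sexes. Xist, expressed from the inactive X chromosome, read 8.84 on chow, 8.77 and 8.56 in the WT fructose pools and 7.04 in the null pool. The Y-linked genes Eif2s3y, Kdm5d and Uty read 7.34, 5.18 and 5.39 in the null pool, higher than in the 2-week WT pool by 0.84, 0.76 and 0.53. The 2-week WT pool was itself above chow for these genes, by 0.39, 0.39 and 0.84. At 3 weeks their differences from chow were -0.12, 0.04 and 0.64. Of 12 male-biased liver genes outside the family, 9 lay 2-fold or more below WT in the null comparison (median -1.72), led by the transporter Slco1a1 at -6.24, whose null level of 2.83 lay below the floor. Of the 9 female-biased genes assessed, 1 was at least 2-fold lower (A1bg at -1.50, its null level also below the floor) and 2 were higher, Sult1e1 at 4.82 (its WT level of 3.40 below the floor) and Sult2a1 at 2.05. In the 2-week WT pool over chow 5 of 11 female-biased genes passed 2-fold downward, including Cyp3a44 at -3.01. Cyp2g1 and Cyp2c69 were also lower than chow in that pool. Male-biased genes leaned down there too, with 11 of 12 below 0 (median -0.52) and 2 at least 2-fold lower. At 3 weeks over chow 2 of 11 female-biased genes were at least 2-fold higher, Cyp3a44 at 2.46 and Cyp3a16 at 1.99. The 1 lower was A1bg at -1.18. Of the 12 male-biased genes 1 was at least 2-fold higher then (list median 0.22). Between the WT fructose pools 7 of 11 female-biased and 3 of 12 male-biased genes read at least 2-fold higher at 3 weeks. Cyp3a44 thus had opposite signs over chow at the 2 times. Among the members, both the female-predominant Cyp2a4, Cyp2b9 and Cyp2b13 and the male-predominant Cyp2d9 read lowest in the null pool. Their part in the Cyp2 differences was not tested, and the share of each sex in a pool cannot be told apart from diet or genotype here.

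**Figure D4:**
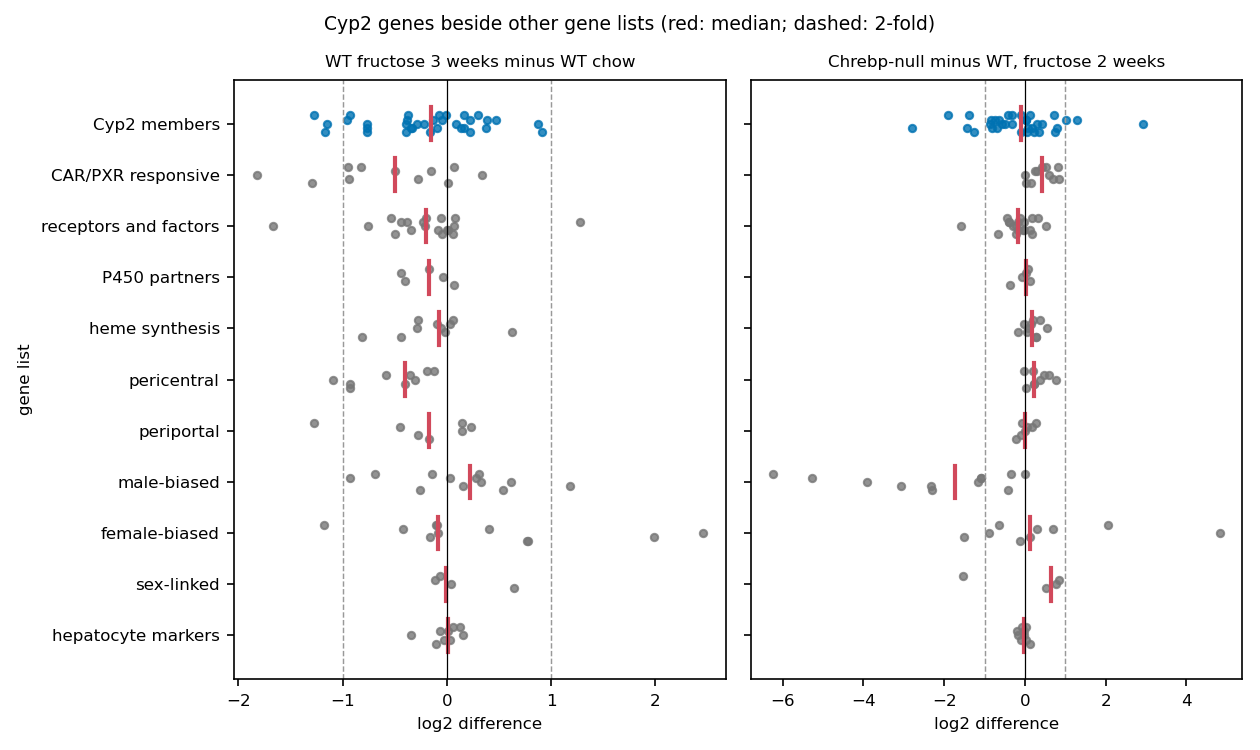
Log2 differences of the detected Cyp2 genes (top row) and of 10 other gene lists in the fructose comparison (left) and the Chrebp-null comparison (right); each point is 1 gene, red bars are list medians and dashed lines mark 2-fold. The axes differ in range. Responsive genes of CAR and PXR have medians of -0.50 and 0.43, and male-biased genes a null median of -1.72.

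Markers of other liver cell types were read as well. The 8 Kupffer cell markers had medians of -0.14 on fructose and -0.06 in the null comparison, with Marco, a scavenger receptor, at 2.66 in the latter. Sinusoidal endothelial markers had medians of 0.34 and -0.23, with Lyve1 at -1.01 in the null comparison, and stellate markers -0.29 and 0.00. Mean Kupffer marker levels ran from 6.96 to 7.68, endothelial from 7.23 to 7.62, stellate from 6.99 to 7.32, cholangiocyte from 3.64 to 3.92 (medians 0.05 and 0.31 over 3 genes) and T, B and neutrophil from 3.22 to 3.45 (medians -0.15 and -0.47 over 2 genes). Their part in the Cyp2 differences was not tested.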

How the data were processed

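Liver RNA combined by genotype and diet was hybridised to 4 Affymetrix arrays, 1 per group. The deposited values are log2 expression per probe set, made with affy and RMA per the submitters' processing notes; their versions and settings are not stated there. RMA corrects background, normalizes and summarises probes, and tends to compress large differences. Gene names came from the platform's annotation (23521 of 41345 have 1 symbol), and 0 columns of sample values were left unused.

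Differences were taken between log2 values of 2 arrays. A gene was assessed where the higher array reached the floor and counted at 2-fold. Named were detected members spanning 2-fold or more, the brightest of each subfamily, subfamilies with 1 member, and up to 4 genes of each list with the largest differences; others were named after their values were seen. The members and lists were chosen with earlier results of these data known. The RefSeq promoters were aligned globally (match 1, mismatch -1, gap opening -2, extension -0.5) with Biopython 1.88. Counting and alignment were tested on simulated data. Alternatives changed the floor, scaling, probe sets, threshold and WT array. Python 3.11.15, numpy 2.4.6, pandas 2.3.3, scipy 1.17.1, statsmodels 0.14.6 and matplotlib 3.10.9 were used. Arrays have no read depth; precision is limited by having 1 per group.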

Additional observations from a re-analysis of the deposited data

Results flagged for a closer look

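Of the 34 detected members, 10 had opposite signs in the 3-week and the 2-week WT fructose pools over chow, and 4 of these were also at least 2-fold apart, a size chosen after the values were seen. Cyp2g1 was 1.87 higher at 3 than at 2 weeks (0.16 and -1.71 over chow). Cyp2c69 was 1.48 higher (0.14 and -1.34), and Cyp2d40 was 1.05 higher (0.92 and -0.14). For Cyp2c38 the value was -1.13 (-0.37 and 0.76). Both differences share the chow array, each pool is 1 array, and the difference was not tested. How many of all genes had opposite signs was not counted, so the member counts have no background beside them.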

How the results depend on the processing

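No replicate exists, so no difference has a replicate check, and the number of arrays limits every value. Pick-up of a neighbour's RNA by a Cyp2 probe set may limit values too. It could not be examined, because no probe sequences were at hand. At a 1.5-fold threshold the fructose comparison counted 2 of 34 members higher and 8 lower, beside 418 and 826 of the 11717 genes assessed. The Chrebp-null comparison counted 6 higher and 11 lower, beside 1065 and 441 of 11631 genes. At 3-fold the counts were 0 lower on fructose (15 of all genes assessed). In the null comparison they were 1 higher and 2 lower (46 and 54 of all genes assessed). With the other WT fructose array, 7 were lower on fructose and 10 lower in the null comparison; the cause was not tested. Without members RefSeq lists as pseudogenes, an alternative chosen after seeing the data, 4 were lower in the null comparison. Cyp2c50 fell short of 2-fold after removal of the trend with level (0.98), with the other WT array (0.79) and with the mean of both (0.90). Among all genes called at 2-fold in either direction, that trend removal moved the share called higher on fructose from 35.5% to 48.2%. In the null comparison the same share moved from 58.7% to 44.4% with trend removal and to 50.1% with quantile normalization. No paired analysis was possible because each group has 1 array and the labels give no replicate numbers.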

Other observations

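Cyp2f2 and Cyp2c29 also had a second, dimmer probe set. That of Cyp2f2 read 4.34 on chow, 4.84 in 3-week and 3.99 in 2-week WT liver, and 3.78 in null liver. That of Cyp2c29 stayed below the floor, from 1.67 to 2.18. Of the 34 detected members, 14 were highest in the chow pool, 10 in the 3-week WT pool, 6 in the 2-week WT pool and 4 in the null pool. The lowest level fell in the null pool for 15 members and in the 2-week WT pool for 12. Highest and lowest pools were not counted over all genes, so these counts have no background.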
